A study of Gallus gallus with 18 samples.

Results

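Purines are built step by step on ribose phosphate in the de novo pathway, which ends in inosine monophosphate and branches from there to adenine and guanine nucleotides. In birds the liver uses this pathway to dispose of surplus nitrogen, which leaves the body as uric acid. Its flux in the chicken therefore serves nitrogen excretion as well as nucleotide supply. The genes described here are 10 enzymes of the pathway, chosen by their names in the platform annotation, at a time when earlier results of these data, the PPAT and PAICS differences among them, were known: PRPS2, PPAT, GART, PAICS, ADSL, ATIC, GMPS, IMPDH2, ADSS1 and ADSS2. Each was covered by 1 probe set, so these are 10 of 18226 probe sets and 10 of 11528 named genes.

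The signals came from liver RNA of male broiler chickens of the Cobb 500 strain that were raised to day 35 on 1 of 3 diets. HI0 held no insect meal, while HI7.5 and HI15 held 7.5% and 15% of partially defatted larvae meal of Hermetia illucens, the black soldier fly (75 and 150 g in each kg of feed). The meal took the place of soybean meal, soybean oil and wheat, and synthetic amino acids were added to the diets. Each diet has 6 single-colour arrays, and the labels say neither which cage an array belongs to nor that each is a separate bird, so the p-values measure only the spread between these samples. Whole liver was hybridised, in which fewer cells of a type and less RNA per cell cannot be told apart. Hepatocyte markers, 8 of 9 listed being measured, were summed on the linear scale in each array. The log2 of that sum was 17.02 to 17.10 in HI0, 17.03 to 17.10 in HI7.5 and 17.02 to 17.09 in HI15. Array medians ran from 7.23 to 7.31 on the log2 scale and the arrays correlated with each other at 0.966 to 0.990. The number of arrays limits the precision. All values below are log2 signals of single probe sets, so levels of different genes are not set against each other.

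None of the 10 enzymes passed the adjusted threshold in any comparison of diets, nor did any other probe set (0% called in each). In HI15 against HI0, PPAT and PAICS had the largest differences among the 10. Their signals were 1.34-fold and 1.43-fold those of HI0 in HI15, with the HI7.5 mean in between. From liver to liver within a diet these 2 signals went up and down together, with a correlation of 0.944, and PAICS was the gene most like PPAT among all 11527 others. For the other 8 enzymes every 95% interval of a diet difference included 0, with the largest difference at 0.26 for ADSL in HI7.5 against HI0. Of these 8, GART and PRPS2 had the highest within-diet r to PPAT, at 0.45 each, and neither passed adjustment. Without the 2 livers farthest from the median of 1 gene of the pair, these r were 0.34 and 0.13.

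PRPS2 makes phosphoribosyl pyrophosphate, the ribose donor on which the purine ring is built. Its gene lies on chromosome 1 from 123572596 to 123598464 of assembly GRCg7b, the RefSeq gene table from which all positions here are taken. The PRPS2 signal had a lowest, median and highest value of 12.47, 12.80 and 12.88 in HI0, of 12.52, 12.86 and 13.13 in HI7.5 and of 12.73, 12.85 and 12.95 in HI15. One HI0 liver (replicate 4) lay below all others, and the 3 diets overlapped. HI15 exceeded HI0 by 0.09 ± 0.10 (log2, SE of the limma fit) and HI7.5 exceeded HI0 by 0.13 ± 0.10. Without HI0 replicate 4 these differences were 0.03 and 0.08.

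PPAT catalyses the first committed step, the transfer of the glutamine amide to phosphoribosyl pyrophosphate (chromosome 4, 64261052 to 64305059). Its signal ran from 10.29 through a median of 10.83 to 11.08 in HI0, from 10.69 through 10.92 to 11.39 in HI7.5 and from 10.84 through 11.2 to 11.59 in HI15. All 6 HI15 livers lay above the HI0 mean of 10.78 ± 0.27 (SD, n = 6), and 1 of them, at 10.84, lay within the HI0 range, so the groups overlapped. The difference between HI15 and HI0 was 0.42 ± 0.15 with a 95% interval of 0.12 to 0.73, or 1.09 to 1.66-fold. Its unadjusted p was 0.0087, rank 70 of 18226, and its adjusted p 0.999 in limma with Benjamini-Hochberg adjustment. HI7.5 exceeded HI0 by 0.21 ± 0.15 and HI15 exceeded HI7.5 by 0.22 ± 0.15. The first was 0.11 without HI0 replicate 4 and 0.13 without HI7.5 replicate 3, and the second 0.14 without HI15 replicate 2.

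PAICS carries out the carboxylation of the imidazole ring and the addition of aspartate that follows it (chromosome 4, 64253806 to 64288832). Its signal ran from 10.06 through a median of 10.5 to 10.83 in HI0, from 10.43 through 10.76 to 11.23 in HI7.5 and from 10.54 through 10.92 to 11.56 in HI15. The order of the diets was that of PPAT, again with overlap through 1 HI15 liver at 10.54, and all 6 HI15 livers lay above the HI0 mean of 10.51 ± 0.29 (SD, n = 6). HI15 exceeded HI0 by 0.52 ± 0.17 with a 95% interval of 0.15 to 0.88, or 1.11 to 1.84-fold. The unadjusted p was 0.00746, rank 56 of all probe sets, and the adjusted p 0.999 in limma. HI7.5 exceeded HI0 by 0.28 ± 0.17 and HI15 exceeded HI7.5 by 0.23 ± 0.17, the latter being 0.12 without HI15 replicate 2.

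GART, an enzyme with several activities that act early in ring assembly (chromosome 1, 105445805 to 105488152), had lowest, median and highest signals of 10.86, 11.17 and 11.63 in HI0. They were 10.71, 11.18 and 11.54 in HI7.5 and 11.07, 11.25 and 11.65 in HI15. The ranges of the 3 diets overlapped widely. HI15 exceeded HI0 by 0.12 ± 0.14, with a 95% interval of 0.886 to 1.34-fold.

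ADSL, adenylosuccinate lyase, acts once in ring assembly and again on the branch to adenosine monophosphate (chromosome 1, 50130267 to 50145924). Its signal ran from 9.86 through a median of 10.42 to 10.77 in HI0, from 10.51 through 10.6 to 10.82 in HI7.5 and from 10.2 through 10.55 to 10.88 in HI15. The HI7.5 livers lay close together, all 6 above the HI0 mean but overlapping the upper end of the HI0 range. HI7.5 exceeded HI0 by 0.26 ± 0.13 (95% interval -0.02 to 0.53, limma unadjusted p = 0.0645, adjusted p = 0.999), while the HI15 mean was 0.17 ± 0.13 above HI0. Without HI0 replicate 5, the lowest liver, these differences were 0.15 and 0.07, and without the 2 livers farthest apart on the first principal axis (HI0 replicate 5 and HI7.5 replicate 3) they were 0.12 and 0.07. ADSL had its highest mean at the middle inclusion level, unlike PPAT and PAICS, although its HI15 and HI7.5 means differed by only -0.09 ± 0.13. The means of PRPS2, IMPDH2, ADSS1 and ADSS2 were also highest in HI7.5.

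ATIC closes the ring to inosine monophosphate (chromosome 7, 4420901 to 4438886). Its medians were 12.77 in HI0, 12.91 in HI7.5 and 12.79 in HI15, with livers from 12.41 to 13.17 over all diets. The means differed by -0.02 ± 0.13 between HI15 and HI0, and the 95% interval ran from 0.812 to 1.19-fold.

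On the guanine branch, IMPDH2 oxidises inosine monophosphate (chromosome 12, 11814176 to 11825653) and GMPS aminates the product to guanosine monophosphate (chromosome 9, 22637462 to 22661208). IMPDH2 had medians of 9.25, 9.21 and 9.32 in HI0, HI7.5 and HI15, and GMPS had medians of 9.92, 9.89 and 9.95. Both genes had a narrow spread in HI15, with an SD of 0.07 for IMPDH2 and 0.08 for GMPS (n = 6). This was not particular to the guanine branch, since PRPS2 and ADSS2 each had an SD of 0.07 in HI15. One HI7.5 liver (replicate 5) reached 10.01 for IMPDH2, above every other liver of the study. HI15 exceeded HI0 by 0.05 ± 0.14 for IMPDH2 and by 0.06 ± 0.11 for GMPS.

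On the adenine branch, ADSS1 (chromosome 5, 51054085 to 51079359) and ADSS2 (chromosome 3, 34445118 to 34480499) are the isoforms of adenylosuccinate synthase, of which the first is known in mammals as the muscle form. ADSS1 had medians of 9.08, 9.03 and 8.96 in HI0, HI7.5 and HI15, and ADSS2 had medians of 8.19, 8.32 and 8.20. Together with ATIC they were the 3 members whose HI15 mean lay below the HI0 mean, with differences of -0.11 ± 0.13 for ADSS1 and -0.03 ± 0.11 for ADSS2. For the 8 enzymes other than PPAT and PAICS, the 95% intervals of HI15 over HI0 reached at most 1.36-fold upward (ADSL) and 0.773-fold downward (ADSS1).

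**Figure D1:**
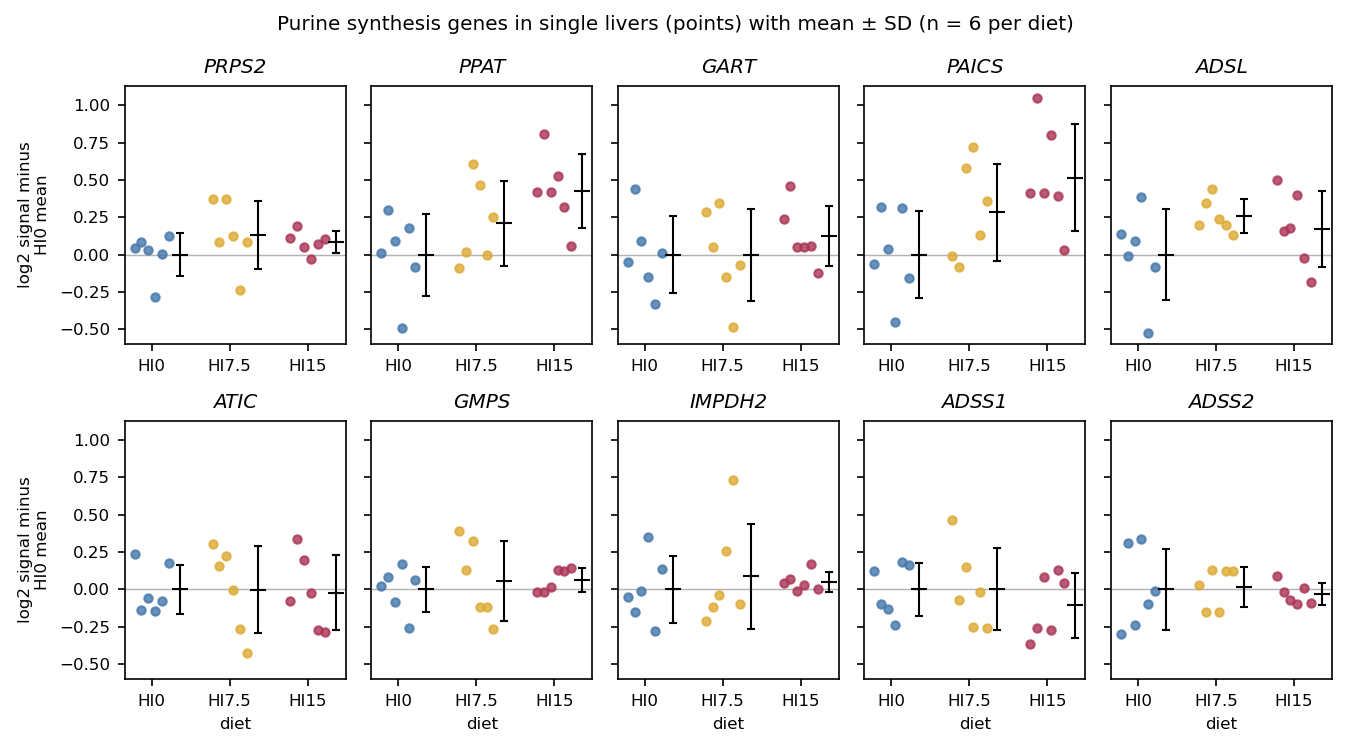
Log2 signal of each liver minus the HI0 mean of that gene (vertical axis) by diet (horizontal axis), 1 panel per enzyme; points are single arrays, and the bar is the mean ± SD of 6 arrays. The HI15 points of PPAT and PAICS all lie above 0, the HI0 mean, and only the lowest of each lies within the HI0 range; the diets overlap in the other panels, where the largest shift of a mean is that of ADSL in HI7.5, at 0.26.

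Across the 10 enzymes, 7 had a mean above that of HI0 in HI15, where 48.4% of all probe sets did. The members' median was 0.07 and that of all probe sets -0.003. In HI7.5, 8 of 10 were above HI0 (46% of all probe sets), again with a median of 0.07. Both comparisons use the same HI0 arrays, so their counts are not separate evidence. Between the diets with insect meal, 4 of 10 means were above HI7.5 in HI15 (51.9% of all probe sets), with a median of -0.03.

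At an unadjusted p under 0.05, PPAT and PAICS were higher in HI15 than in HI0, against 1.34% of all probe sets that were. The 2 signals shared 89.0% of their within-diet variance, so they do not count as 2 independent members. The members were also chosen with these differences known. No enzyme was higher in HI7.5 than in HI0 (1.03% of all probe sets) or in HI15 than in HI7.5 (1.99%) at that level. PPAT and PAICS also had the smallest p among the 10 in the limma F test over the 3 diets, 0.0294 and 0.0253 before adjustment, where 2.87% of all probe sets fell under 0.05. On a slope per 10 percentage points of meal, PAICS was at 0.34 ± 0.11 (unadjusted p = 0.00613) and PPAT at 0.28 ± 0.10 (unadjusted p = 0.00713), with 1.37% of all probe sets having a positive slope under 0.05. The adjusted p of both slopes was 0.999 in limma. These F tests, slopes and pairwise differences rest on the same 18 arrays.

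**Figure D2:**
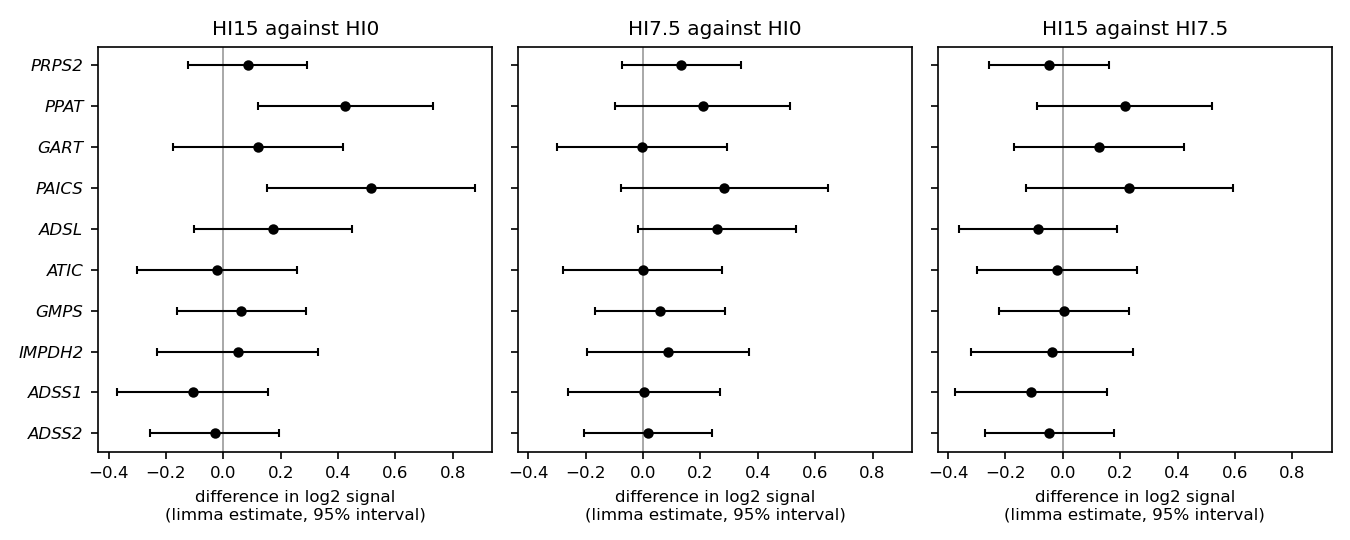
Difference in log2 signal between diets for each enzyme (horizontal axis; points are limma estimates, bars 95% intervals) in 3 panels, 1 per comparison. In HI15 against HI0 the intervals of PPAT (0.12 to 0.73) and PAICS (0.15 to 0.88) lie above 0, and all others cross it; in the other panels every interval crosses 0.

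Single livers of a diet differed from each other in these signals. The within-diet SD over all probe sets had a median of 0.22. PAICS, at 0.33, lay at the 86.8th percentile of all probe sets, PPAT was at 0.27 and GART at 0.26. ADSL, ATIC and IMPDH2 each had an SD of 0.24, ADSS1 had 0.22, and GMPS and ADSS2 had 0.18. PRPS2, the enzyme upstream of the pathway, had the narrowest within-diet SD of the members, 0.16. From the lowest to the highest of the 18 livers, PAICS spanned 2.83-fold, PPAT 2.46-fold and ADSL 2.03-fold, while ADSS2 spanned 1.56-fold.

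The same livers held the extremes of several enzymes. One HI0 liver (replicate 4) was the lowest of all 18 for PRPS2, PPAT and PAICS and the highest for ADSS2. One HI15 liver (replicate 2) was the highest for PPAT, GART, PAICS and ATIC. One HI7.5 liver (replicate 3), an end sample of the first principal component, lay above its diet mean for 9 of the 10 enzymes. Its average deviation over all 10 was 0.21. The lowest average deviation, -0.16, was that of an HI15 liver (replicate 6) with 3 enzymes above its diet mean. The fewest above it, 2, were found in HI7.5 replicate 5, with an average deviation of -0.10.

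**Figure D3:**
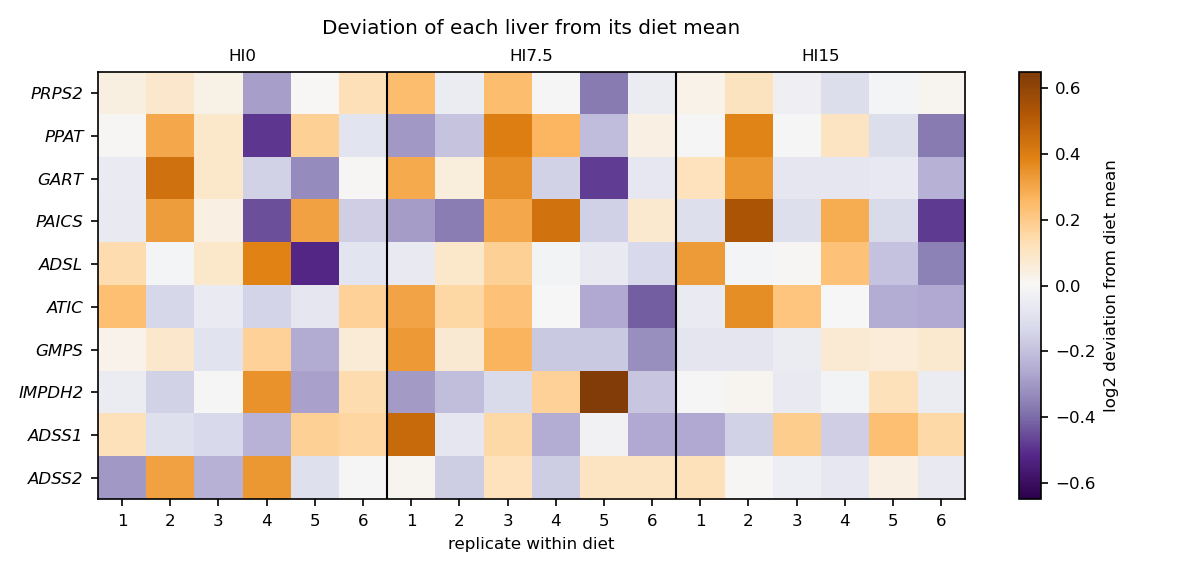
Deviation of each liver's log2 signal from its diet mean (colour) for the 10 enzymes (rows) and the 18 livers (columns, replicates 1 to 6 of each diet). The PPAT and PAICS rows have the same sign in 17 of the 18 livers.

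The design also allows the enzymes to be compared across single livers with the diet means taken out. PPAT and PAICS are neighbours on chromosome 4, and in vertebrates, the chicken among them, the pair is known for divergent transcription from a shared promoter region. The annotated spans used here overlap and have no end in common, so they do not show such a region. The part of a shared promoter in the correlation below was not tested. Over the 18 livers, the deviations of PPAT and PAICS from their diet means correlated with a Pearson r of 0.944 and a Spearman rho of 0.959 (permutation within diets, p = 1e-05 for each, the smallest that 100000 resamples can give). The adjusted p of r over all 45 pairs of members was 0.00045. Without the 2 livers farthest from the median of PPAT, r was 0.955.

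The correlation was high within each diet, although the rank correlation in HI7.5 missed the threshold. In HI0, r was 0.962 (exact permutation p = 0.00139, n = 6) and rho 1. In HI7.5, r was 0.926 (exact permutation p = 0.0181, n = 6) and rho 0.771 (exact permutation p = 0.103). In HI15, r was 0.969 (exact permutation p = 0.00278, n = 6) and rho 1. The pooled r with diet means left in was 0.962, and rho 0.953.

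The deviations shared 89.0% of their variance. The within-diet SD of the difference PAICS minus PPAT was 0.115, compared with 0.268 for PPAT and 0.326 for PAICS alone. In 17 of 18 livers both genes lay on the same side of the diet mean, and the same livers were lowest and highest for both. The annotated spans of the genes overlap from 64261052 to 64288832, a stretch of 27781 bases. The tables used here give neither strand nor probe positions, so it is not known here whether probes of both sets lie in that stretch. Probes there could read RNA of either gene, and their part in the r of 0.944 was not tested.

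**Figure D4:**
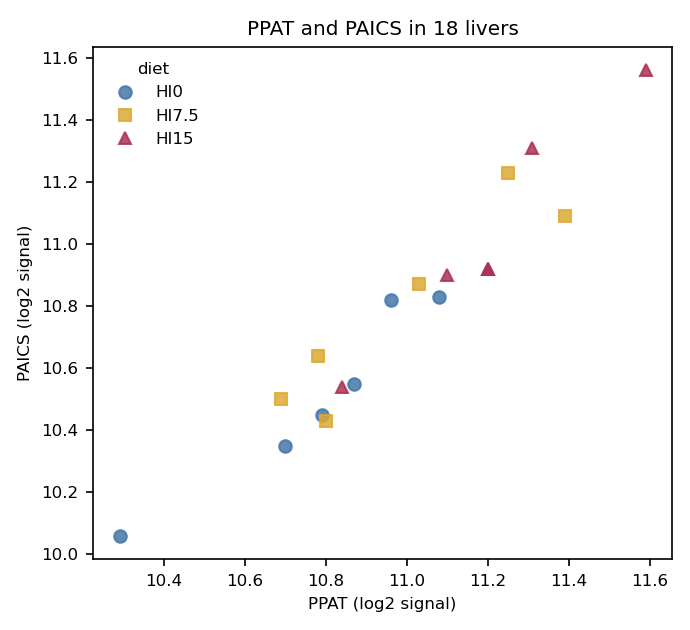
Log2 signal of PAICS (vertical axis) against that of PPAT (horizontal axis) in the 18 livers; marker shape and colour give the diet, and 2 HI15 livers coincide. The points of all 3 diets fall along 1 line from the lowest HI0 liver (10.29, 10.06) to the highest HI15 liver (11.59, 11.56), with a within-diet r of 0.944.

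Ranked over 11527 other genes by within-diet r to PPAT, PAICS was first. The next were CNTNAP2 at 0.835, AADAT at 0.809, CHIA at 0.739, SPAG1 at 0.731 and LUZP2 at 0.721, as a description over 18 livers with no test. AADAT encodes an aminotransferase of lysine and tryptophan breakdown and CHIA an acidic chitinase. Leaving out single livers moved r over 0.782 to 0.874 for CNTNAP2, 0.771 to 0.884 for AADAT and 0.703 to 0.816 for CHIA. Over all genes, the 5th to 95th percentile of r to PPAT was -0.37 to 0.41.

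The other purine enzymes stood further down this ranking. GART (r = 0.45) was at rank 372 and PRPS2 (r = 0.45) at 391, both above the 95th percentile, and ATIC was at 1632. The r of GART to PPAT was 0.34 without the 2 livers farthest from the median of PPAT. That of PRPS2 to PPAT was 0.13 without the 2 livers farthest from the median of PRPS2. ADSL (6674), ADSS2 (8218), ADSS1 (9484), GMPS (10270) and IMPDH2 (10370) lay in the lower part of all genes. The median within-diet r to the other 9 members was -0.03 for PPAT and -0.07 for PAICS.

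Of the 45 pairs of members, PPAT with PAICS alone passed the adjusted threshold of 0.05 for Pearson's r within diets, and 6 had an unadjusted p under 0.05. Next came PRPS2 with GART, the enzyme that makes the ribose donor and an early ring enzyme, with r at 0.736 (permutation p = 0.00345, adjusted p = 0.0776) and rho at 0.728 (permutation p = 0.00178, adjusted p = 0.0401). Without the 2 farthest livers r was 0.661. Within diets it was 0.425 in HI0, 0.963 in HI7.5 and 0.638 in HI15, and with diet means left in it was 0.680 (adjusted p = 0.0475). This pair thus passed by rank or with diet means left in, but not by the within-diet Pearson r.

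PRPS2 and IMPDH2 had an r of -0.706 (permutation p = 0.0182, adjusted p = 0.273), with a rho of -0.284 (permutation p = 0.326). That value rests on single livers, since r was -0.183 without the 2 farthest. ATIC had an r of 0.564 with PRPS2 (adjusted p = 0.313) and of 0.519 with GART (adjusted p = 0.332), neither past the threshold in the permutation test. ADSL and ADSS1, both of the adenine branch, had an r of -0.473 (permutation p = 0.0363, adjusted p = 0.327) and a rho of -0.458. Their r was -0.724 in HI0, 0.214 in HI7.5 and -0.797 in HI15.

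Over the 45 pairs the median within-diet r was 0.218, and 25 pairs were above 0. Over all 66441628 pairs of the 11528 genes the median was 0.0005 and 50.1% were above 0. An r over 0.5 was found for 4 of the 45 pairs, against 8.48% of all gene pairs, so a high correlation was about as frequent among the members as among genes at large. Pairs that share a gene are not independent. The sign of r was positive in every diet for 11 pairs, negative in every diet for 3 and mixed for 31, and the difference between diets was not tested.

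By median r with the other members, PRPS2 (0.38), GMPS (0.36), GART (0.34) and ATIC (0.28) stood highest. IMPDH2 (-0.29) and ADSS1 (-0.19) stood lowest. Neither the spread of an array's signals nor the first principal component of the arrays correlated with a member past adjustment in the permutation test (0 of 20 relations). The largest r were those of GMPS, 0.618 to the array spread (permutation p = 0.0192) and -0.636 to the component (permutation p = 0.0189). ADSS2 followed at -0.573 to the component (permutation p = 0.0327), all before adjustment. For PPAT and PAICS, r to the array spread was -0.265 (rho -0.339, permutation p = 0.324 and 0.205) and -0.345 (rho -0.423, permutation p = 0.183 and 0.103). Without the 2 farthest livers these r were -0.559 and -0.518. With array spread as a covariate, HI15 exceeded HI0 by 0.45 for PPAT and 0.56 for PAICS, and their within-diet r was 0.941.

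**Figure D5:**
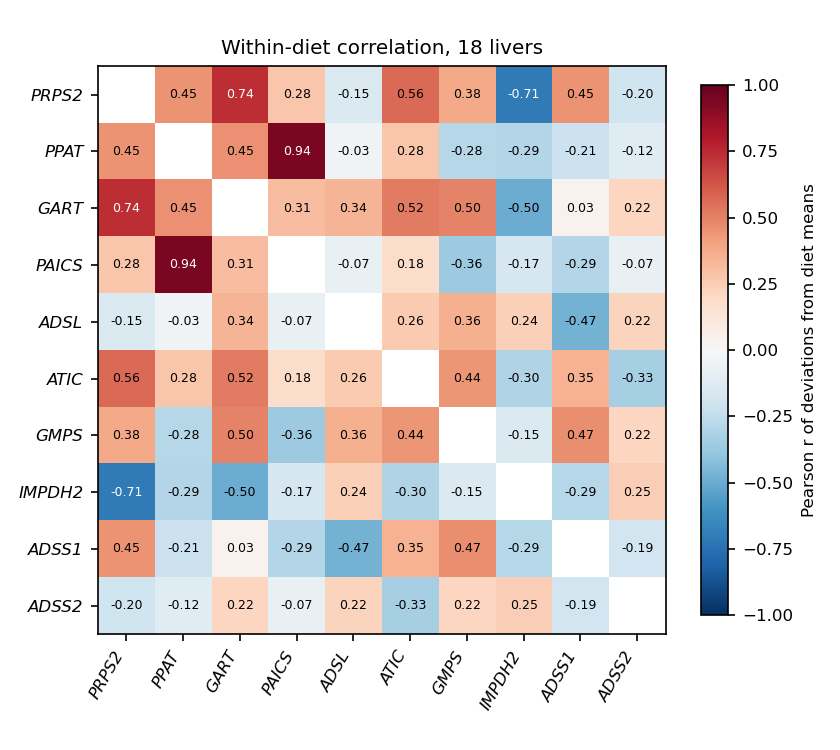
Pearson r of deviations from the diet means over 18 livers for every pair of the 10 enzymes (rows and columns in the order in which the text first lists them). Colour and printed number give r from -1 to 1. The PPAT and PAICS cell (0.94) stands apart, PRPS2, GART and ATIC have positive values with each other (0.52 to 0.74), and IMPDH2 has negative values with most enzymes.

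The genes most like the mean of the 10 standardised members over the 18 livers were C2orf76 (r = 0.868), STK39 (0.848), MTIF3 (0.846), IL15 (0.832) and RAB40B (0.829). INO80, LIN52, SOAT1, LARP4 and SKA2P1 followed at 0.822 to 0.801. They are the 10 highest among genes outside the members, a description with no test. Leaving out single livers moved r over 0.8207 to 0.9014 for C2orf76, the first, and over 0.6665 to 0.8655 for SKA2P1, the last. These ranges overlap, so the order within the 10 is loose. The 5th to 95th percentile over all 11528 genes was -0.51 to 0.55.

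Genes around the pathway were examined as lists, and 0 genes of any list passed adjustment in limma. Counts below are of measured genes only. Measured were 10 of 13 listed for uric acid, 20 of 26 for one-carbon enzymes, 12 of 18 for salvage and 8 of 12 for pentose phosphate. For pyrimidine synthesis they were 7 of 9, for ribonucleotide reductase 3 of 4 and for growth regulators 8 of 10. Fasting and feeding genes had 12 of 18 measured and cell division genes 15 of 19. Of the other phosphoribosyl pyrophosphate synthase genes, 3 of 6 were measured, with PRPSAP1 at 0.06 ± 0.08 and PRPS1L1 at -0.10 ± 0.08 in HI15 against HI0. Downstream, in the list of uric acid formation and transport together with glutamine supply, 6 of 10 measured genes were above 0 (median 0.08), with glutamine synthetase, GLUL, at 0.49 ± 0.18 (unadjusted p = 0.0146) and purine nucleoside phosphorylase, PNP, at -0.30 ± 0.14 (unadjusted p = 0.0397). Xanthine dehydrogenase, XDH, which forms uric acid, was at 0.25 ± 0.32, and adenosine deaminase, ADA, at 0.17 ± 0.09. Besides PNP, the genes of this list below 0 were NT5C1A (-0.14 ± 0.12), AMPD3 (-0.09 ± 0.12) and SLC2A9 (-0.05 ± 0.15). At an unadjusted p under 0.05, 1 of these 10 was higher and 1 lower, against 1.34% and 1.8% of all probe sets.

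Folate-dependent one-carbon enzymes and the serine and glycine enzymes that feed them donate carbons of the purine ring. In HI15, 14 of 20 were above HI0 (median 0.06). The smallest p upward was that of PSAT1, of serine synthesis, at 0.22 ± 0.12, and downward that of MTHFS, which recycles a folate, at -0.16 ± 0.16. In HI7.5 the count was 11 of 20 (median 0.02), and PSAT1 was at 0.43 ± 0.12 (unadjusted p = 0.00227, adjusted p = 0.999 in limma). Across the livers, 13 of the 20 had a within-diet r above 0 to the mean of the purine members, with a median of 0.17. The range ran from -0.43 for MTHFD2, the mitochondrial folate dehydrogenase, to 0.70 for MTHFD1, the cytosolic enzyme that supplies formyl groups, as a description over 18 livers. Over all genes outside the members the median r to that mean was 0.05. Other lists around the pathway had medians from -0.24 (pyrimidine synthesis) to 0.35 (salvage), with pentose phosphate at 0.24, so one-carbon enzymes did not stand out.

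Purine salvage enzymes had 8 of 12 above 0 in HI15 against HI0 (median 0.04), with GMPR2 at 0.21 and NME1 at -0.20 as the smallest p in each direction. The pentose phosphate pathway, which supplies ribose phosphate, had 5 of 8 above 0 (median 0.09), with H6PD at 0.19 ± 0.13 and DERA at -0.09 ± 0.13. Pyrimidine synthesis, the sister pathway, had 2 of 7 above 0 (median -0.04), with CMPK1, a nucleotide kinase, at 0.16 and the first enzyme of the pathway, CAD, at -0.13 as the smallest p in each direction. All 3 measured genes of ribonucleotide reductase, which makes deoxynucleotides, were above 0 (median 0.21), and none had an unadjusted p under 0.05.

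Among regulators of growth and nutrient state, 3 of 8 were above 0 in HI15 against HI0 (median -0.003), with MYCN at 0.06 ± 0.10 and ATF4, an activator of amino acid and serine synthesis genes, at -0.23 ± 0.12 (unadjusted p = 0.0768). ATF4 had a within-diet r of -0.57 to PPAT and of -0.61 to the mean of the members, the lowest of 8 regulators, as a description. Genes of fasting and feeding had 5 of 12 above 0 (median -0.02), with PDK4 at 0.33 ± 0.34 and PCK1 at -0.55 ± 0.54. Leaving out single arrays moved them over 0.14 to 0.56 and -0.92 to -0.23. Cell division genes, which also draw on purines, had 5 of 15 above 0 in HI15 (median -0.14). In HI7.5 against HI0, 0 of 15 were above 0 (46% of all probe sets), with a median of -0.28. At an unadjusted p under 0.05, 4 were lower (2.07% of all probe sets). The purine members' median in that comparison was 0.07. The cell division genes were dim, with a mean log2 signal of 6.96 in HI0 and 6.72 in HI7.5, where array medians were 7.23 to 7.31. Whether they vary together was not tested, so the 15 are not counted as separate evidence.

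Of 7 marker lists of other cell types and tissues, those of erythroid and stellate cells had the largest medians in HI15 against HI0. Both measured erythroid markers of 6 listed, HBA1 and HBAD, were above 0 (median 0.51). The log2 of their summed linear signals was 10.3 to 11.1 in HI0 and 9.77 to 12.7 in HI15. In HI7.5 against HI0 their median was as high, at 0.52. All 5 measured stellate markers of 7 listed were above 0 in HI15 against HI0 (median 0.17). The log2 of their summed linear signals was 11.3 to 11.9 in HI0 and 11.3 to 12.4 in HI15. In HI7.5 against HI0, 1 of these 5 was above 0 (median -0.06). Neither list had a member past adjustment, and their part in the PPAT and PAICS differences was not tested.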

How the data were processed

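Each deposited value is a log2 signal of 1 probe set that came out of the authors' RMA step (background correction, normalization across arrays, summary of probes). The submitters' processing notes name Affymetrix Expression Console 1.4. Detection values were not used here, so dim probe sets stayed in. Of 18226 probe sets, 12300 had 1 symbol in the platform annotation, and the one with the highest mean stood for its gene. A model with diet means was fitted to all 18 arrays together (limma 3.58.1, R 4.3.3). Its two-sided p-values were adjusted across every probe set after Benjamini-Hochberg, with a threshold of 0.05. Correlations used deviations from diet means with 100000 permutations within diets, adjusted over 45 pairs. Fit and correlation test were checked on simulated data. The members and the gene lists were chosen with earlier results of these data known, which already held the PPAT and PAICS differences. Lists contributed the gene with the smallest p in each direction, and the likeness rankings their 10 or 5 highest genes. Outside that rule, XDH, ADA, NT5C1A, AMPD3 and SLC2A9 were also named from the uric acid list. MTHFD1, MTHFD2 and the correlations of ATF4 were picked after their values were seen. Alternatives covered normalization, array spread and weights, the title number, and each array left out. The title number is the last number of a sample title, and the labels do not say what it stands for. A title-number run holds 1 array of each diet with neighbouring numbers, such as 22, 23 and 24. The main fit did not use these runs.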

Additional observations from a re-analysis of the deposited data

Results flagged for a closer look

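One value stood far from the rest of its group. The PRPS2 signal of HI0 replicate 4 was 12.47, below the next HI0 liver at 12.76. That gap is 0.707 of the range of the 6 HI0 livers, more than Dixon's 95% critical value for 6 values. Among 30 groups of 6 that were checked this was the single such value. Chance gives about 1 in 20 groups, so 1 in 30 is no more than chance would give. The same liver also had the lowest PPAT and PAICS signals of the study.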

How the results depend on the processing

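Each diet difference was recomputed under 29 alternatives. No member passed adjustment under any of them (lowest adjusted p = 0.813). For HI15 against HI0, PPAT stayed between 0.33 (without HI0 replicate 4) and 0.50 (without HI15 replicate 6), and PAICS between 0.41 (without HI15 replicate 2) and 0.61 (without HI15 replicate 6), each with an unadjusted p under 0.05 in all 29. Several of the 29, such as an HI7.5 array left out or the title-number run as a block, cannot move these estimates and change only their p. In the F test the count of members at an unadjusted p under 0.05 went from 2 to 0 after quantile normalization and without HI0 replicate 6, HI15 replicate 2 or HI15 replicate 4, and to 1 without HI0 replicate 4. In HI7.5 against HI0 that count went from 0 to 1 with the title-number run as a block, with the title number as a covariate, and without HI0 replicate 4 or HI7.5 replicate 5. The PPAT and PAICS within-diet r was 0.933 to 0.953 when single livers were left out and 0.941 to 0.978 otherwise. Of 870 member differences, 60 turned sign, in 6 members. In every comparison several of the 29 alternatives cannot move an estimate, so part of the 870 could not turn sign. Of the 60 that did, 19 arose under alternatives other than a single array left out, and they are named next. In HI15 against HI0 these were ATIC with array weights (0.0069) and the title number (0.0190), IMPDH2 without the 2 end samples of the first principal component (-0.0060) and ADSS2 with array weights (0.0231). In HI7.5 against HI0 they were GART with median scaling (0.0075) and the title number (0.0130), ATIC with median scaling (0.0092), array weights (0.0116) and the title number (0.0119), GMPS with array spread (-0.0206) and without the end samples (-0.0460), ADSS1 after quantile normalization (-0.0331), with array spread (-0.0586) and with array weights (-0.0087), and ADSS2 with array spread (-0.0434) and without the end samples (-0.0260). In HI15 against HI7.5 they were ATIC with the title number (0.0071) and without the end samples (0.0253) and ADSS2 with array weights (0.0038). Leaving out single arrays gave, for HI15 against HI0, ATIC -0.093 to 0.031, IMPDH2 -0.006 to 0.12, ADSS2 -0.09 to 0.038 and MYCN -0.001 to 0.092. In that comparison it moved GART over 0.05 to 0.21, GMPS over 0.01 to 0.10, ADSS1 over -0.15 to -0.05, CAD over -0.26 to -0.06, DERA over -0.16 to -0.04, H6PD over 0.12 to 0.24, MTHFS over -0.29 to -0.07, NME1 over -0.32 to -0.15 and PRPSAP1 over 0.02 to 0.09. For HI7.5 against HI0 it gave GART -0.0737 to 0.0923, ATIC -0.063 to 0.083, GMPS -0.0087 to 0.1233, IMPDH2 -0.042 to 0.1567, ADSS1 -0.0883 to 0.0557 and ADSS2 -0.0433 to 0.0847. For HI15 against HI7.5 it gave ATIC -0.1047 to 0.0413, GMPS -0.06 to 0.072 and IMPDH2 -0.096 to 0.092. The count of member pairs past the threshold, 1, became 2 after quantile normalization, by Spearman's rho or with diet means left in, 3 with array spread, 4 with the title-number run as a block, and 1 to 2 with single arrays left out (2 without HI0 replicates 2, 4 or 5). With array spread or the run, the deviations were permuted within diets only. That does not allow for the spread or run taken out, so the counts of 3 and 4 can be too high. The causes of the changes in count were not tested. The median r over the pairs, 0.218, went down to 0.055 without the end samples, to 0.074 with the run as a block, to 0.090 after quantile normalization and to 0.111 with array spread, and was 0.127 to 0.242 with single arrays left out. Deviations from the diet means were also correlated between arrays over all genes. Arrays of the same title-number run in different diets had a median r of these deviations of -0.079 over 18 pairs, with 5 over 0.1. For arrays of different runs and diets the median was 0.025 over 90 pairs. These values are not specific to the members, whose relation to the runs was not tested. A mean over all probe sets of a gene changes nothing for the members, since each has 1.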
